A study of Homo sapiens with 12 samples.

Results

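Precursor mRNA splicing is steered by RNA-binding proteins that are named mainly for their families. SR proteins (the SRSF genes) carry a domain rich in arginine and serine, bind enhancer sequences in exons and generally favour exon inclusion, and CLK kinases phosphorylate that domain. Heterogeneous nuclear ribonucleoproteins (the HNRNP genes and the polypyrimidine tract proteins PTBP1 and PTBP2) package nuclear RNA and often repress exons, while U2AF1, U2AF2, SF3B1 and RBM39 act where the 3′ splice site and branch point are recognised. Several of these genes limit their own mRNA by splicing in exons that send the transcript to nonsense-mediated decay, and several are overexpressed in tumours.

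The genes described here are the protein-coding genes whose symbol begins with SRSF or HNRNP, together with TRA2A, TRA2B, PTBP1, PTBP2, U2AF1, U2AF2, SF3B1, RBM39 and the CLK kinases CLK1 to CLK4. There are 51 of them among the 58347 genes in the count files, and 46 passed the filter on low counts. The other 5 were HNRNPCL1, HNRNPCL2, HNRNPCL3 and HNRNPCL4, with at most 4 counts in any library, and the readthrough gene HNRNPUL2-BSCL2, with at most 12 counts. RNA came from A375, a human BRAF-mutant melanoma cell line, after 8 h with DMSO (vehicle), with tretinoin (all-trans retinoic acid, a ligand of the retinoic acid receptors), with vemurafenib (an inhibitor of mutant BRAF), or with vemurafenib and tretinoin together, called the combination below. The labels list 5 uM for each of the 4 groups, the vehicle group included, without saying how this was split in the combination. Each group had 3 libraries, 12 in all, with 13510235 to 21534377 counts assigned to genes. The labels give triplicate treatments of 1 cell line but not independent cultures, so the p-values measure only the spread between these libraries. A measured fall in bulk RNA cannot tell fewer cells of one kind from less RNA per cell.

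As a check of the treatments, the MAPK pathway targets DUSP6, SPRY4 and ETV5 had log2 fold changes of -6.07, -6.55 and -4.67 under vemurafenib. Of 3 retinoid targets, DHRS3 rose by 2.91 under tretinoin, whereas RARB (0.82, edgeR adjusted p = 0.101) and CYP26A1 (0.51, edgeR adjusted p = 0.633) were not called. DHRS3 and RARB also rose under vemurafenib alone, by 1.74 and 2.80. Of the melanocyte markers, SOX10 was listed at 0 in all 12 libraries, TYR reached at most 1 count, PMEL and MLANA stayed at or below 1.34 CPM (counts scaled by library size), S100B was at 6.22 to 10.9 CPM and MITF lay between 12.9 and 35.0 CPM, so the labelled melanoma identity rests on few of its lineage markers in these files. VIM (761 to 1020 CPM) and AXL (302 to 484 CPM), found in dedifferentiated melanoma, were abundant, NGFR lay at 20.8 to 42.6 CPM, and SOX9 reached at most 1.41 CPM. Of markers of other cell types, EPCAM, CDH1 and CD3E stayed below 1 CPM, PECAM1 and LYZ reached at most 4.37, PTPRC 4.77, KRT5 5.12, CDH5 15.4 and KRT14 33.3 CPM. Some of these markers moved with the treatments. Under vemurafenib MITF rose by 0.88, KRT14 by 1.24 and PTPRC by 1.36, while AXL, NGFR and the endothelial marker CDH5 were lower, at -0.38, -0.67 and -4.96. With the combination the same genes had 0.64, 1.32, 1.77, -0.43, -0.96 and -0.53, all called, and under tretinoin CDH5 rose by 1.54 and PTPRC by 1.46. With total-count scaling 1 of AXL and NGFR was lower under vemurafenib, and CDH5 was not called with the combination. Summed over 4 epithelial markers the level was 11.7 to 15.1 CPM in DMSO, 31.5 to 33.9 with vemurafenib and 27.8 to 37.6 with the combination. Mitochondrial counts were 0.592% to 0.689% of the library in DMSO, 0.957% to 1.49% with tretinoin, 1.09% to 1.11% with vemurafenib and 1.21% to 1.86% with the combination, so this share too was higher in every treated library. The part of these markers and of the mitochondrial share in the results below was not tested.

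Promoter windows are shown for the members with the largest falls under vemurafenib or with the combination whose RefSeq window (GRCh38.p14) lies upstream of the annotated transcript, with 26 bases of overlap at most. Each line gives the 250 bases before the RefSeq start, 5′ to 3′ on the gene's own strand. Capitals mark matches to any of 6 motifs searched on both strands: CACGTG (E-box), TGACGTCA (cAMP response element), TGACTCA (AP-1), CCGGAAG (ETS), TTTGGCGC (E2F) and CCGCCC (SP).
SRSF7, chr2:38751495-38751744, minus strand: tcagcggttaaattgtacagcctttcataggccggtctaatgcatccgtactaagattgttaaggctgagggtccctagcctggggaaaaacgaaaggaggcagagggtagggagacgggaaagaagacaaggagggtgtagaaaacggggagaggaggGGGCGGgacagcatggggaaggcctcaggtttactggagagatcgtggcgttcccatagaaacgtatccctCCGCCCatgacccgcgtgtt
HNRNPAB, chr5:178204283-178204532, plus strand: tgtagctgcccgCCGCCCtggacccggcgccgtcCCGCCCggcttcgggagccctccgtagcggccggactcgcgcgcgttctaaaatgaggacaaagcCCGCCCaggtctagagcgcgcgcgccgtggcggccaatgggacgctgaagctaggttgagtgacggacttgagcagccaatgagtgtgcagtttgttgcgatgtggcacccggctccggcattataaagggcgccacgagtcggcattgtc
HNRNPU, chr1:244864544-244864793, minus strand: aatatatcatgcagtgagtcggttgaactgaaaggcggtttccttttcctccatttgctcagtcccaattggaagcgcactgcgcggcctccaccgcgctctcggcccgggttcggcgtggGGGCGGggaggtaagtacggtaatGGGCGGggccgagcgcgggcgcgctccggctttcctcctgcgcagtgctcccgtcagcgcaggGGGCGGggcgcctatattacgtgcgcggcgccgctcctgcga
HNRNPH1, chr5:179634785-179635034, minus strand: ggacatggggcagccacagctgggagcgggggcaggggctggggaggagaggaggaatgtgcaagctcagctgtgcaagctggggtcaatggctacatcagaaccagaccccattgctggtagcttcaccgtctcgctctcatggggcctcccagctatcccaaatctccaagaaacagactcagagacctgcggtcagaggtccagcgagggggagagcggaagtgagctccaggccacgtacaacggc
U2AF1, chr21:43107571-43107820, minus strand: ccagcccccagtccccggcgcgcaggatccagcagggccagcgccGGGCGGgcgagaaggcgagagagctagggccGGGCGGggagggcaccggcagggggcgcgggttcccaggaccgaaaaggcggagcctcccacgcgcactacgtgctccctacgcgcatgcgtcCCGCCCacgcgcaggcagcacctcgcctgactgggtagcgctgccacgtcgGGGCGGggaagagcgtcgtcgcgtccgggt
SRSF7 held SP matches beginning 91 and 20 bases before the start, HNRNPAB at 238, 216 and 151, HNRNPU at 129, 105 and 42, and U2AF1 at 205, 174, 81 and 30. No letters of the 6 motifs occurred in the HNRNPH1 window. That window adjoins the outermost 5′ end of a gene record with 50 transcripts, and other starts of any gene were not searched. SP letters were in 68.3% of the 41 member promoters with a window and in 66.0% of 11167 promoters of tested genes. The E-box was in 9 of the 41 member promoters and in 8.9% of those of tested genes. It was in the windows of CLK2, CLK4, HNRNPA3, HNRNPD, HNRNPDL, HNRNPH2, HNRNPH3, HNRNPM and SF3B1, and thus in 4 of the 25 members with a window that were lower under vemurafenib and in 5 of the other 16. ETS letters, the core that ETS factors downstream of MAPK signalling bind, were in 14.6% of member promoters and 15.3% of tested genes, and neither AP-1 nor cAMP response element letters were in any member's window. Overlapping matches were counted separately, and the letter matches describe the windows and are not binding sites.

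The levels of the 46 genes covered a wide range. Expressed per length of the longest coding transcript as FPKM (fragments per kilobase, scaled by library size), HNRNPA1, which binds exonic and intronic silencers, was highest with a mean of 602 over the 12 libraries. HNRNPA2B1 followed with 489 and HNRNPM with 251. At the other end, CLK4 had 3.03, PTBP2 0.967 and SRSF12 0.152. By mean count, 39 of the 46 genes were among the 25% of tested genes with the highest counts, called high-count genes below, so the members are set beside high-count genes as well as beside all genes.

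Under vemurafenib, the splicing factor genes mostly fell. Against DMSO, 26 of 46 were lower and 2 were higher at an adjusted p below 0.05 (edgeR quasi-likelihood test, Benjamini-Hochberg over 16740 genes). Over all genes tested, 26.3% were lower and 26.4% higher, and of the high-count genes 47.4% were lower. The members' median log2 fold change was -0.29, against 0.02 for all genes and -0.18 for high-count genes, and 25 of the 39 high-count members were lower. With the combination, 25 members were lower and 2 higher (26.5% and 27.1% of all genes, 47.2% of high-count genes lower), and their median was -0.31. When libraries were scaled by total counts alone, the median of all genes moved up to 0.21 under vemurafenib and 0.19 with the combination. The split of members then became 15 lower and 7 higher under vemurafenib, and 16 lower and 5 higher with the combination. Of the 16740 genes tested, 15.7% were then lower and 6575 higher under vemurafenib. With the combination 17.4% were lower and 6242 higher. The families differed in how far their counts depended on this choice, and the counts with total-count scaling are given beside each family below. Those counts are to be read beside the shares of all genes just given. Leaving out DMSO replicate 1 gave 4 higher genes under vemurafenib, and leaving out DMSO replicate 2 or vemurafenib replicate 2 gave 1. Over all genes, 4107 of 17188, 3906 of 17206 and 3797 of 17077 were higher in these fits.

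**Figure D1:**
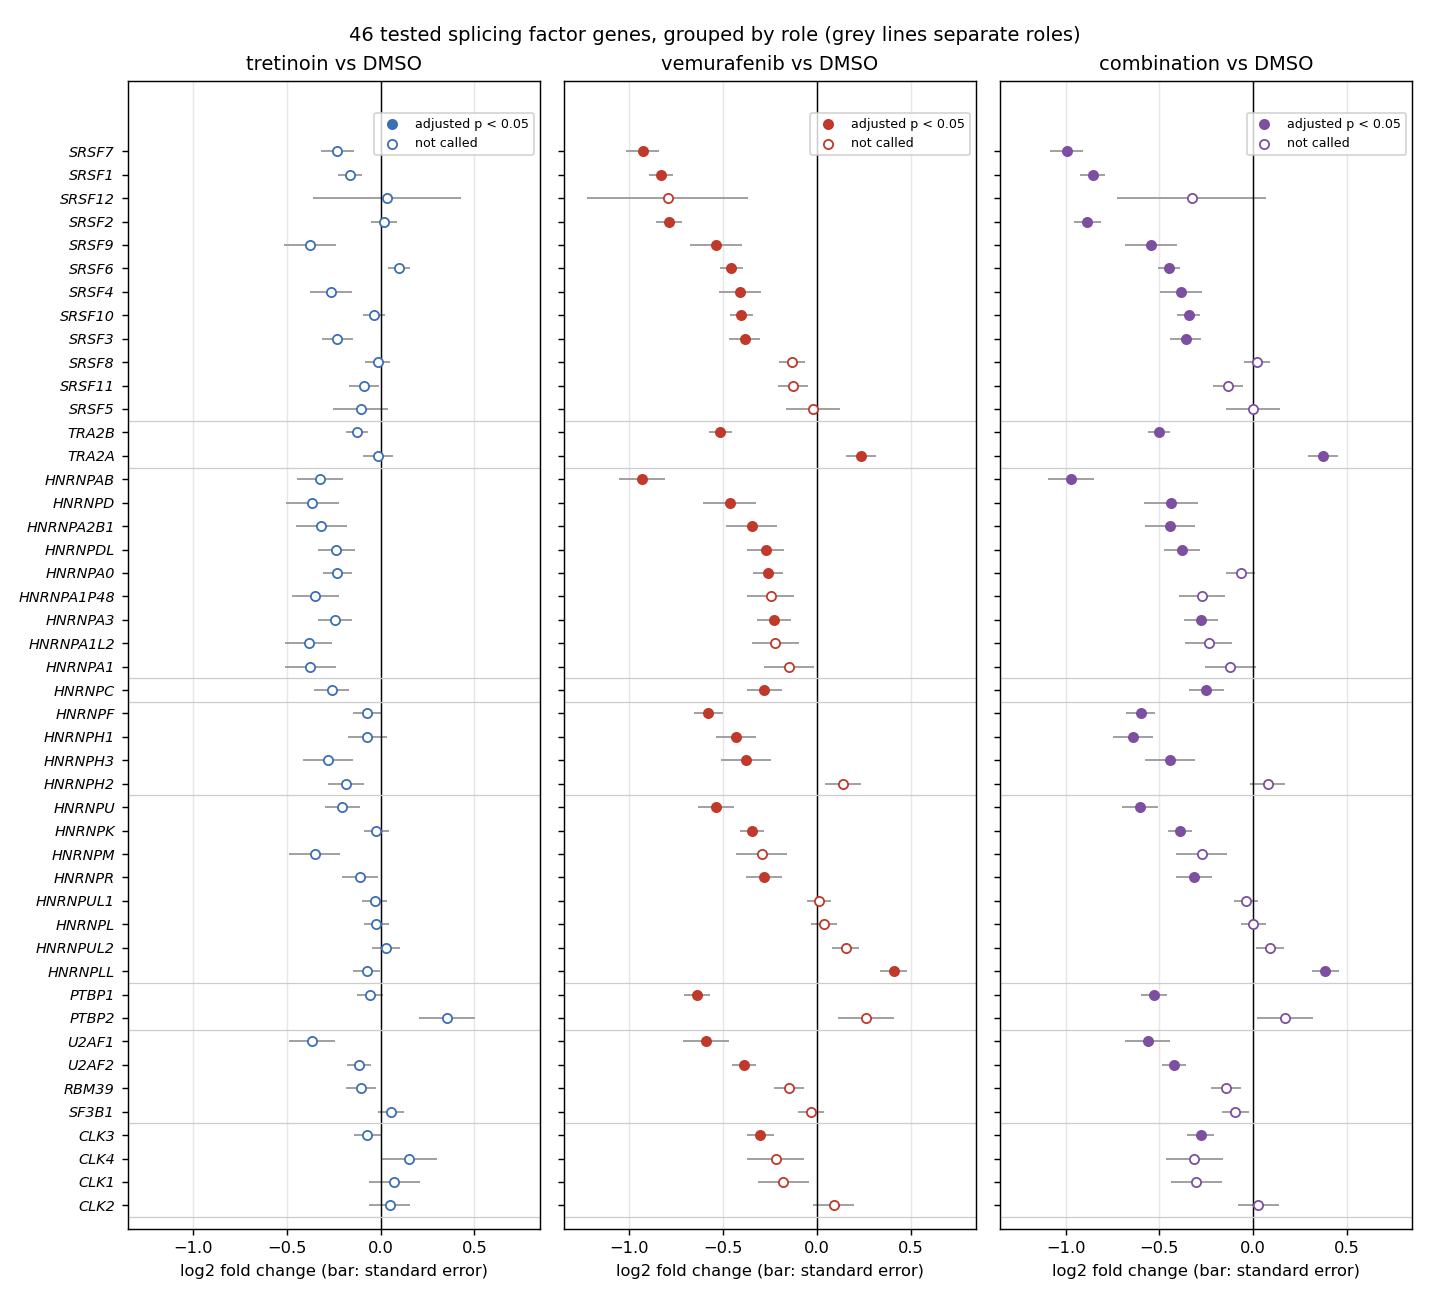
Log2 fold change against DMSO (x axis) of the 46 tested genes (rows, grouped by role) for tretinoin, vemurafenib and the combination, with 3 libraries a group. Points are edgeR estimates, bars are standard errors, and filled points passed the adjusted p of 0.05; no point is filled for tretinoin, 28 are for vemurafenib and 27 for the combination.

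Among the 12 SR protein genes, 8 were lower and none higher under vemurafenib, and likewise 8 lower and none higher with the combination. With total-count scaling 7 were lower in each comparison, and SRSF4 was no longer called (-0.22, edgeR adjusted p = 0.0888 under vemurafenib). SRSF8 was then called higher with the combination (0.18, edgeR adjusted p = 0.0335), where the median of all genes was 0.19. The SR protein with the largest fall was SRSF7 (chr2:38743599-38751494, minus strand), which also helps carry mRNA out of the nucleus. Its normalised counts (TMM-scaled to the mean library size) were 8326, 9219.5 and 8782 in the 3 DMSO libraries, 6225, 8307 and 7907 with tretinoin, 4579, 4656 and 4580.0 with vemurafenib and 4568, 4399 and 4252 with the combination. Every library with vemurafenib, alone or combined, lay below every DMSO and tretinoin library. The change was -0.93 ± 0.09 (SE) on the log2 scale under vemurafenib, a level 0.525 times that in DMSO (edgeR adjusted p = 1.09e-07), and -0.99 ± 0.09 with the combination (edgeR adjusted p = 4.54e-08). Its promoter is the first of those shown above.

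SRSF1 (chr17:58003360-58007346, minus strand), the founding SR protein and an oncoprotein when overexpressed, counted 7264, 8397 and 7819 in DMSO, 6934, 7056 and 6959 with tretinoin, 4330.4, 4330.4 and 4526 with vemurafenib and 4346, 4213 and 4423 with the combination. SRSF2 (chr17:76734115-76737374, minus strand), a component of nuclear speckles, counted 4042, 4106 and 3841 in DMSO, 4299, 3796 and 4057 with tretinoin, 2162, 2302 and 2477 with vemurafenib and 2186, 2239 and 2068 with the combination. For both genes the 6 libraries with vemurafenib were separate from the 6 without it. SRSF1 changed by -0.83 ± 0.07 under vemurafenib (edgeR adjusted p = 1.20e-08) and -0.85 ± 0.07 with the combination (edgeR adjusted p = 7.77e-09). SRSF2 changed by -0.79 ± 0.07 (edgeR adjusted p = 5.66e-08) and -0.89 ± 0.07 (edgeR adjusted p = 1.21e-08). The authors counted without strand and dropped fragments that touch more than 1 gene, and 60.7% of SRSF1 exon bases and 36.7% of SRSF2 exon bases are overlapped by other annotated genes, so counts of these genes come from the remaining bases.

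The other SR proteins that fell did so by less. Under vemurafenib SRSF9, SRSF6, SRSF4, SRSF10 and SRSF3 had log2 fold changes of -0.54, -0.46, -0.41, -0.40 and -0.38, with edgeR adjusted p from 6.50e-06 to 0.00558. With total-count scaling SRSF9, SRSF6, SRSF10 and SRSF3 were still lower, by 0.34, 0.26, 0.21 and 0.19. SRSF8, SRSF11 and SRSF5 did not pass the test, with values from -0.13 to -0.02 and, for SRSF5, an interval of -0.32 to 0.29. Of SRSF9 exon bases, 46.2% are overlapped by other annotated genes. SRSF12, at 4.30 to 14.7 normalised counts in a library, had an estimate of -0.80 with a standard error of 0.43 and was not called. With the combination SRSF8, SRSF11 and SRSF5 had values from -0.13 to 0.02.

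The SR-like pair TRA2A and TRA2B, whose proteins bind GA-rich exonic enhancers, went in opposite directions. TRA2B (chr3:185915906-185938136, minus strand) counted 5348, 5440.4 and 5696 in DMSO, 4892, 5121 and 5103 with tretinoin, 3868, 3875 and 3794 with vemurafenib and 3778, 3958 and 3898 with the combination. TRA2A (chr7:23504780-23532041, minus strand) counted 1026, 907 and 1002 in DMSO, 931, 959 and 1018 with tretinoin, 1144, 1202 and 1115 with vemurafenib and 1326, 1354 and 1122 with the combination. In neither gene did the vemurafenib or the combination libraries overlap those of DMSO or tretinoin. TRA2B fell by 0.52 ± 0.06 on the log2 scale under vemurafenib (edgeR adjusted p = 1.39e-06) and by 0.50 ± 0.06 with the combination (edgeR adjusted p = 1.75e-06). TRA2A rose by 0.24 ± 0.08 (edgeR adjusted p = 0.0185) and 0.37 ± 0.08 (edgeR adjusted p = 7.29e-04). The vemurafenib call of TRA2A was lost without DMSO replicate 2 (0.19, edgeR adjusted p = 0.0915) or without vemurafenib replicate 2 (0.20, edgeR adjusted p = 0.0856), and without the low-count filter (edgeR adjusted p = 0.0796). With total-count scaling the 2 genes still went apart under vemurafenib, with TRA2A at 0.43 and TRA2B at -0.32, both called.

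A ratio of counts of 2 genes within a library does not depend on how libraries are scaled, and such ratios were chosen after the values were seen and carry no test. TRA2A made 0.167 to 0.192 counts for each TRA2B count in DMSO, 0.187 to 0.200 with tretinoin, 0.294 to 0.310 with vemurafenib and 0.288 to 0.351 with the combination. The mean ratio was thus 1.68 times that of DMSO under vemurafenib and 1.84 times with the combination, with no overlap between libraries with and without vemurafenib. Other related genes also moved apart. SRSF7 per SRSF3 count was 0.681 ± 0.0317 in DMSO (SD, n = 3), 0.466 ± 0.0075 with vemurafenib and 0.438 ± 0.0015 with the combination. SRSF2 per SRSF8 count was 3.73 to 4.12 in DMSO, 2.36 to 2.74 with vemurafenib and 1.87 to 2.29 with the combination. These ranges of libraries did not overlap DMSO for either ratio. SRSF1 per SRSF9 count moved less, with means 0.816 and 0.807 times that of DMSO under vemurafenib and with the combination. This ratio was 6.01 in tretinoin replicate 1, against 3.51 and 3.35 in tretinoin replicates 2 and 3.

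**Figure D2:**
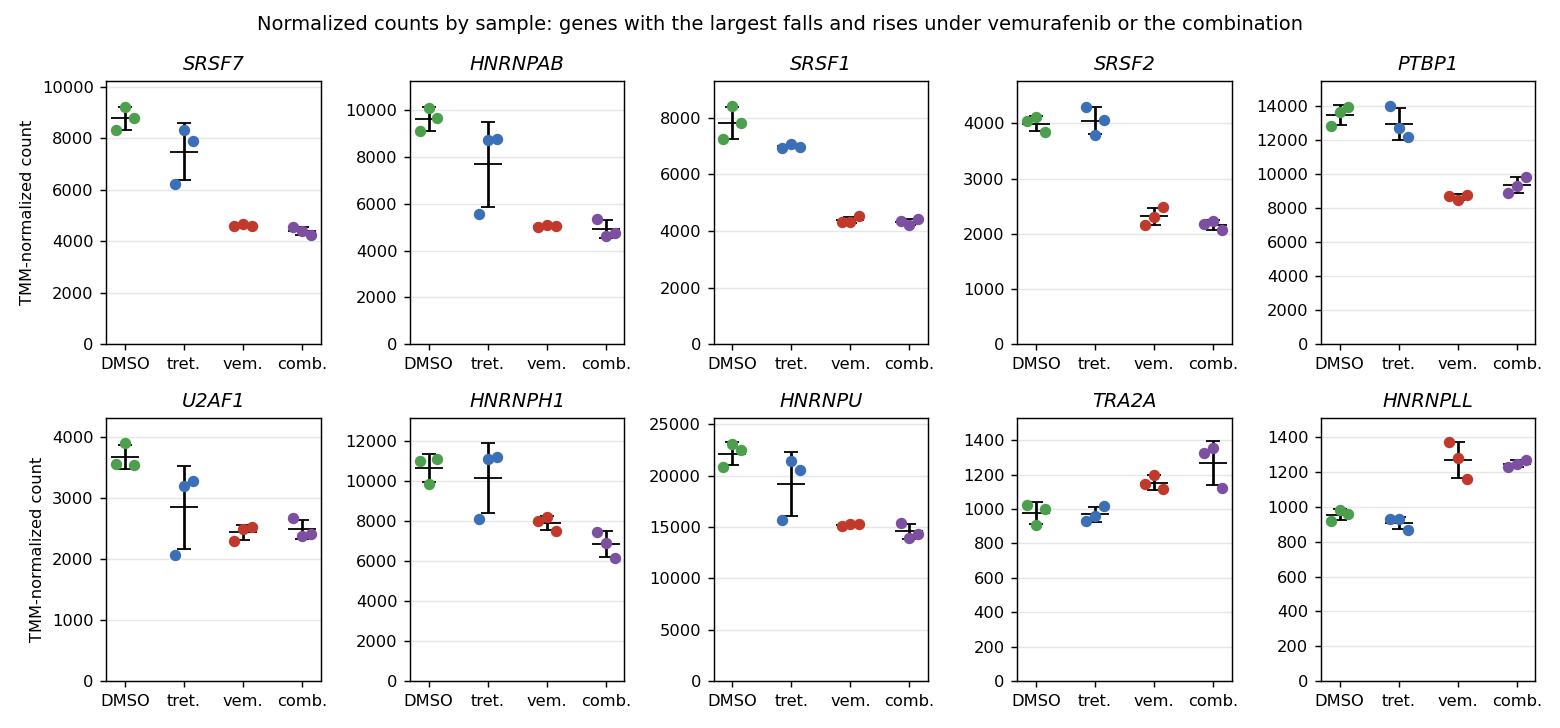
TMM-normalised counts (y axis, linear from 0) of 10 genes in each library by treatment (DMSO, tretinoin, vemurafenib, combination), with points for the 3 libraries and black lines for mean ± SD. SRSF7, HNRNPAB, SRSF1, SRSF2, PTBP1, U2AF1, HNRNPH1 and HNRNPU are lower in all 6 libraries with vemurafenib than in DMSO, and TRA2A and HNRNPLL are higher. For U2AF1, HNRNPAB, HNRNPH1, HNRNPU, SRSF7 and, by a smaller gap, SRSF1 and TRA2A the lowest tretinoin point is replicate 1.

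Of the 9 genes of the HNRNP A, B and D families, 6 were lower under vemurafenib and 5 with the combination, and none was higher, but with total-count scaling HNRNPAB alone was lower in each comparison. HNRNPA2B1 (-0.15), HNRNPD (-0.27), HNRNPDL (-0.08), HNRNPA3 (-0.04) and HNRNPA0 (-0.06) then lost their vemurafenib call, with edgeR adjusted p from 0.0935 to 0.740. HNRNPAB (chr5:178204507-178211163, plus strand), an RNA-binding protein related to the HNRNP A group, counted 9110.2, 10119 and 9668 in DMSO and 5586, 8724 and 8766 with tretinoin. It counted 4997, 5095 and 5033 with vemurafenib and 5354, 4647 and 4745 with the combination, all below every other library, although tretinoin replicate 1 came close to the combination's highest. HNRNPAB changed by -0.93 ± 0.12 under vemurafenib (edgeR adjusted p = 5.63e-06) and by -0.97 ± 0.12 with the combination (edgeR adjusted p = 3.44e-06). Its relative HNRNPD, also called AUF1 and known for binding AU-rich elements, changed by -0.47 and -0.44, and HNRNPAB per HNRNPD count went from 0.935 ± 0.0752 in DMSO to 0.673 ± 0.0377 and 0.646 ± 0.0341 (SD, n = 3). HNRNPA2B1, HNRNPDL and HNRNPA3 were also lower in both comparisons, with values from -0.35 to -0.23 under vemurafenib.

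HNRNPA1, the most abundant member, did not pass the test. Its normalised counts were 47734, 55524 and 46730.4 in DMSO, 27359, 43661 and 44667 with tretinoin, 43223, 45247 and 46980.1 with vemurafenib and 49116, 43562 and 45284 with the combination. The DMSO libraries overlapped both vemurafenib groups, and the lowest library was tretinoin replicate 1. The estimates were -0.15 (95% interval -0.43 to 0.13, edgeR adjusted p = 0.372) and -0.12 (-0.40 to 0.16, edgeR adjusted p = 0.468). HNRNPA1L2 and HNRNPA1P48, close relatives of HNRNPA1, counted 5.72% to 8.27% and 1.69% to 3.19% of HNRNPA1 in each library, and stretches of 1350 and 1361 bases are at least 98% identical to it, so their values may hold reads of HNRNPA1.

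HNRNPC, which binds uridine tracts and keeps cryptic exons silent, fell by 0.28 under vemurafenib (edgeR adjusted p = 0.0175) and by 0.25 with the combination (edgeR adjusted p = 0.0314). Both calls were lost with total-count scaling, which gave HNRNPC -0.09 in each comparison (edgeR adjusted p = 0.368 and 0.365). In the F and H family, whose proteins bind runs of G, 3 of 4 genes were lower in both comparisons. With total-count scaling 1 was lower and 1 higher under vemurafenib and 2 lower and 1 higher with the combination, HNRNPH2 being the higher gene (0.34 and 0.24) and HNRNPH1 losing its vemurafenib call (-0.24, edgeR adjusted p = 0.0545). HNRNPF (chr10:43385617-43409166, minus strand) counted 8424, 8798 and 9380.0 in DMSO, 6104, 5994 and 5710.3 with vemurafenib and 5518, 6059.5 and 5971 with the combination, without overlap. HNRNPH1 (chr5:179614178-179634784, minus strand) counted 11004, 9875 and 11120.2 in DMSO, 8126, 11109 and 11237 with tretinoin, 8003, 8228 and 7499 with vemurafenib and 7481, 6899 and 6166 with the combination. The combination libraries were the lowest for HNRNPH1, and tretinoin replicate 1 lay within the vemurafenib range. HNRNPH1 changed by -0.43 ± 0.10 under vemurafenib (edgeR adjusted p = 0.00234) and -0.64 ± 0.11 with the combination (edgeR adjusted p = 6.65e-05). The difference between the combination and vemurafenib alone, -0.21 with an interval of -0.43 to 0.01, did not pass (edgeR adjusted p = 0.399). HNRNPH2, the X-linked paralog of HNRNPH1, was not called at 0.14 and 0.08, and HNRNPH1 per HNRNPH2 count was 7.90 ± 1.32 in DMSO, 5.25 ± 0.170 with vemurafenib and 4.76 ± 0.467 with the combination (SD, n = 3).

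Among 8 tested genes of the HNRNP K, L, M, R and U families, 3 were lower and 1 was higher in each of these comparisons. This balance turned with total-count scaling, which gave 2 lower and 4 higher under vemurafenib and 2 of each with the combination. Of all 16740 genes, 15.7% were then lower and 6575 higher under vemurafenib, and 17.4% lower and 6242 higher with the combination. HNRNPU (chr1:244840638-244864560, minus strand), a nuclear scaffold protein that also binds chromatin, counted 20869, 23046 and 22473 in DMSO and 15666, 21409.5 and 20493 with tretinoin. It counted 15119, 15294 and 15264 with vemurafenib and 15421, 13929.7 and 14306 with the combination, below every DMSO and tretinoin library. The changes were -0.54 ± 0.10 (edgeR adjusted p = 1.28e-04) and -0.60 ± 0.10 (edgeR adjusted p = 3.82e-05). HNRNPK and HNRNPR fell by 0.35 and 0.28 under vemurafenib, against -0.15 (called) and -0.09 (not called, edgeR adjusted p = 0.392) with total-count scaling. HNRNPL, HNRNPUL1 and HNRNPUL2 lay at 0.04, 0.01 and 0.15 and were not called. HNRNPM, at -0.29 with an edgeR adjusted p of 0.0775, was not called either. Total-count scaling called HNRNPL, HNRNPUL1 and HNRNPUL2 higher under vemurafenib, at 0.23, 0.21 and 0.35 (edgeR adjusted p = 0.0101, 0.0084 and 0.00222). The median of all genes was then 0.21, near the values of HNRNPL and HNRNPUL1. Of HNRNPUL2 exon bases, 44.1% are overlapped by HNRNPUL2-BSCL2.

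HNRNPLL (chr2:38561978-38603586, minus strand), a paralog of HNRNPL best known for controlling CD45 splicing in lymphocytes, was the member with the largest rise. Its normalised counts were 920.0, 985 and 962 in DMSO, 930.0, 928 and 868 with tretinoin, 1370.3, 1279 and 1159.7 with vemurafenib and 1232, 1245 and 1269 with the combination. Each of the 6 libraries with vemurafenib exceeded each of the 6 without. HNRNPLL rose by 0.41 ± 0.07 under vemurafenib (edgeR adjusted p = 1.04e-04) and 0.39 ± 0.07 with the combination (edgeR adjusted p = 1.77e-04). Counts of HNRNPLL per HNRNPL count were 0.194 ± 0.0104 in DMSO, 0.250 ± 0.0130 with vemurafenib and 0.252 ± 0.0105 with the combination.

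PTBP1 (chr19:797075-812327, plus strand), the widely expressed repressor that binds pyrimidine tracts, counted 12854, 13662 and 13970.4 in DMSO, 14034, 12728 and 12189 with tretinoin, 8754, 8482 and 8758 with vemurafenib and 8918, 9295 and 9871 with the combination. Both vemurafenib groups were below all other libraries. It fell by 0.64 ± 0.07 under vemurafenib (edgeR adjusted p = 8.33e-07) and 0.53 ± 0.07 with the combination (edgeR adjusted p = 7.48e-06). PTBP2, its neuronal paralog whose transcript PTBP1 is known to suppress, had 218, 145 and 184 counts in DMSO, 242, 233 and 226 with tretinoin, 247, 225 and 184 with vemurafenib and 241, 206 and 173 with the combination. The vemurafenib and combination libraries overlapped those of DMSO, and the estimates of 0.26 and 0.17 were not called (edgeR adjusted p = 0.15 and 0.348). The tretinoin libraries were all above DMSO, with an estimate of 0.35 that was not called (edgeR adjusted p = 0.168). With total-count scaling PTBP2 was called higher under vemurafenib (0.45, edgeR adjusted p = 0.0251). PTBP2 per PTBP1 count was 0.0106 to 0.0169 in DMSO, 0.0173 to 0.0185 with tretinoin, 0.0210 to 0.0282 with vemurafenib and 0.0175 to 0.0270 with the combination. The mean ratio was 1.86 times that of DMSO under vemurafenib and 1.64 times with the combination, and no library of either group overlapped DMSO.

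At the 3′ splice site, U2AF1 and U2AF2 fell while SF3B1 and RBM39 were not called. U2AF1 (chr21:43092956-43107587, minus strand), the small subunit of U2AF that reads the AG at the intron end, counted 3556, 3898 and 3542 in DMSO, 2055, 3186 and 3278 with tretinoin, 2292, 2480.4 and 2520.2 with vemurafenib and 2663, 2372 and 2408 with the combination. All vemurafenib and combination libraries were below DMSO, and tretinoin replicate 1 was below them all. U2AF1 changed by -0.59 ± 0.12 under vemurafenib (edgeR adjusted p = 5.66e-04) and -0.56 ± 0.12 with the combination (edgeR adjusted p = 8.29e-04). Its counts differed from those of the near-identical copy U2AF1L5 by at most 0.426% in each library, so the 2 loci hold the same fragments and the values are those of both. U2AF2, the large subunit that binds the pyrimidine tract, fell by 0.39 ± 0.06 (edgeR adjusted p = 6.61e-05) and 0.42 ± 0.06 (edgeR adjusted p = 2.52e-05). Both subunits were still lower with total-count scaling, U2AF1 by 0.40 and U2AF2 by 0.19 under vemurafenib. SF3B1, which holds the branch point helix, was at -0.03 (95% interval -0.18 to 0.12) and -0.09 (-0.24 to 0.05). RBM39, a relative of U2AF2, was at -0.15 and -0.14.

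Of the 4 CLK kinases, CLK3 was lower under vemurafenib (-0.30 ± 0.07, edgeR adjusted p = 0.00191) and with the combination (-0.28 ± 0.07, edgeR adjusted p = 0.00319). With total-count scaling CLK3 was at -0.11 and -0.12 and neither call held (edgeR adjusted p = 0.228 and 0.186). CLK1 had 431, 309 and 356 normalised counts in DMSO, 326, 337 and 303 with vemurafenib and 322, 342 and 226 with the combination, and these ranges overlapped. CLK1, CLK2 and CLK4 had values of -0.18, 0.09 and -0.22 under vemurafenib and were not called. In a list of 9 other kinases of SR proteins or of the RNA polymerase II tail, 3 were lower and 1 higher in both comparisons. Of all genes and of high-count genes, 26.3% and 47.4% were lower under vemurafenib and 26.5% and 47.2% with the combination. The list's median was 0.01 under vemurafenib and -0.06 with the combination, and total-count scaling gave 1 lower and 4 higher, and 1 lower and 2 higher. SRPK1, the cytoplasmic SR protein kinase, fell by 0.67 under vemurafenib (edgeR adjusted p = 6.15e-08) and by 0.78 with the combination (edgeR adjusted p = 7.64e-09), whereas SRPK2 was at 0.07 and -0.08 and was not called. DYRK1B rose by 1.65 and 1.56 (edgeR adjusted p = 1.15e-09 and 2.06e-09).

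Other splicing genes, listed by complex, are given for comparison. Of 13 core snRNP protein genes, 11 were lower under vemurafenib and 9 with the combination, and none was higher in either. SNRPB2 changed most, by -1.05 and -1.02 (edgeR adjusted p = 1.35e-08 and 1.75e-08). Among 11 U2 and SF3 factors, 8 and 6 were lower, and the branch point binding gene SF1 fell by 0.65 and 0.67. Among 19 tri-snRNP and catalytic factors, 12 were lower in each comparison, and DHX15, a helicase that takes spliceosomes apart, fell by 0.74 and 0.84. PRPF8 and SNRNP200, at the catalytic centre, were at 0.05 and 0.04 under vemurafenib and were not called. Of 14 speckle and SR-related genes, 6 were lower and 1 higher under vemurafenib and 10 lower and 1 higher with the combination, with PNN at -0.97 under vemurafenib and RBM5 at 0.49 and 0.36. Among 23 gene records of other regulators, 12 were lower and 4 higher under vemurafenib and 11 lower and 4 higher with the combination, with SYNCRIP at -0.58 and -0.69, QKI at 0.35 and 0.32 and TIA1 at 0.27 and 0.38. Of 10 nonsense-mediated decay factors, 3 were lower and 2 higher under vemurafenib and 2 lower and 2 higher with the combination. The median log2 fold changes of these lists under vemurafenib were -0.40, -0.27, -0.32, -0.16, -0.25 and 0.08 in the order given, and 0.02 over all genes. The counts are to be read beside the 26.3% of all genes and 47.4% of high-count genes that were lower under vemurafenib. With total-count scaling 15.7% of all genes were lower and 6575 of 16740 higher under vemurafenib. In these lists the lower genes then numbered 5, 3, 6, 3, 8 and 1 and the higher genes 0, 0, 3, 2, 7 and 6. The balance of the decay factors thus turned to the higher side, as did that of all genes. With the combination 26.5% of all genes and 47.2% of high-count genes were lower. Total-count scaling gave 17.4% of all genes lower and 6242 higher with the combination. In these lists the lower genes then numbered 5, 3, 9, 2, 8 and 1 and the higher genes 0, 0, 3, 2, 5 and 5.

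In GENCODE 29, 76.1% of the 46 tested members (35 genes) have a transcript annotated as a target of nonsense-mediated decay, against 41.4% of the 13517 other tested protein-coding genes, and 71.7% have a retained intron transcript against 56.0%. The deposited counts sum all transcripts of a gene, so a change in the share of such transcripts cannot be read from them.

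Tretinoin alone gave no call among the 46 genes, and 5.68% of all tested genes were called. At an unadjusted p under 0.05 there were 19 members (the share of all genes is not given here). DESeq2 called 3 of 46 as lower, and 4.15% of the genes it tested. Of the 46 estimates 37 were negative, with a median of -0.11, against 0.01 for all genes and -0.06 for high-count genes. The smallest p-values were those of HNRNPA1L2 (-0.38 ± 0.13, edgeR adjusted p = 0.0833) and U2AF1 (-0.37 ± 0.12, edgeR adjusted p = 0.0877). HNRNPA1L2 counted 3362, 3922 and 3108 in DMSO and 2261, 2498 and 3193 with tretinoin, and these ranges overlapped. With tretinoin replicate 3 left out, 7 members were called lower, and with tretinoin replicate 1 left out none was. Of all genes, 3.82% and 2.06% were lower in these fits.

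Tretinoin replicate 1 stood apart from its group. The 51 genes held 1.41% of its counts, against 1.73% and 1.74% in tretinoin replicates 2 and 3, 1.77% to 1.82% in DMSO, 1.59% to 1.63% with vemurafenib and 1.51% to 1.65% with the combination. It was the lowest of its group for 35 of the 46 genes, and for 11 it was at least 0.5 log2 units below the mean of the other replicates, as were 10.6% of all genes tested. SRSF9, HNRNPH3 and HNRNPA2B1 lay 0.82, 0.77 and 0.74 log2 units below, while SRSF2 and PTBP1 were highest of the 3 in that library. It also had the lowest total, 13510235 counts, and 1.49% mitochondrial counts against 0.957% and 1.03% in the other tretinoin libraries. The cause was not tested.

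**Figure D3:**
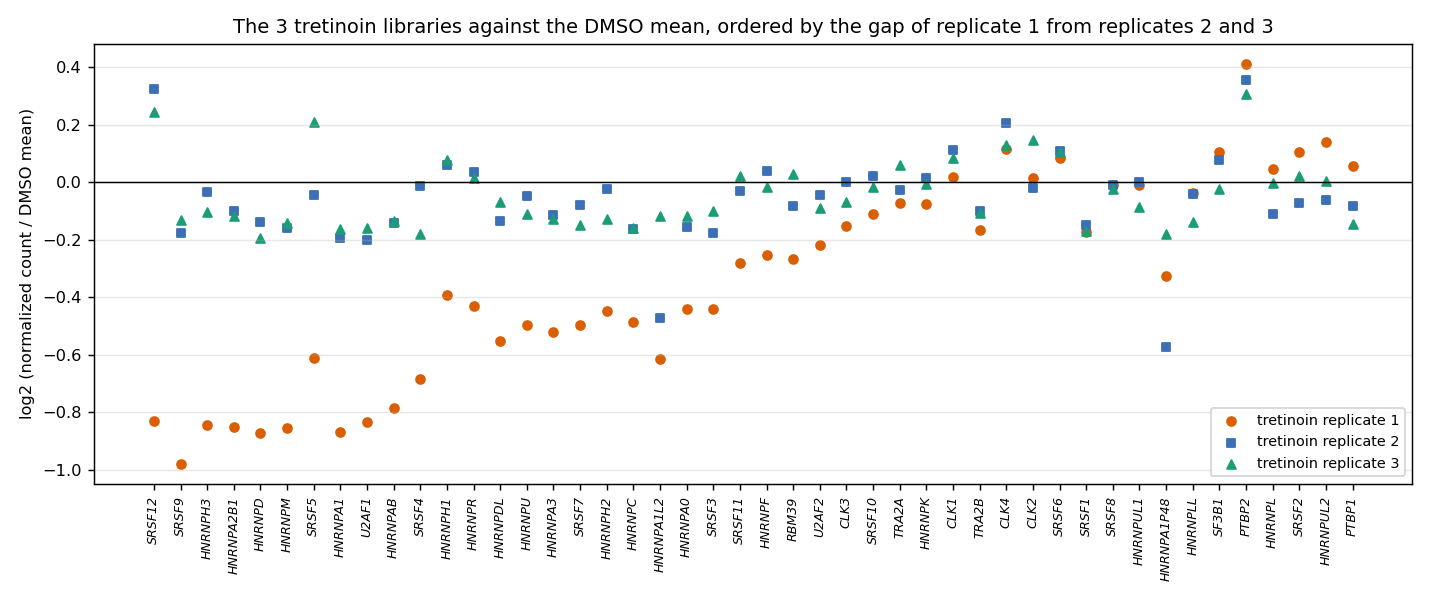
Log2 ratio of each tretinoin library's normalised count to the DMSO mean (y axis) for the 46 tested genes (x axis), ordered by how far replicate 1 lies below replicates 2 and 3. Replicate 1 is the lowest point for 35 genes, whereas replicates 2 and 3 lie close to each other and to 0 for most.

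The effect of vemurafenib in the presence of tretinoin was read from the combination against tretinoin. Here 16 members were lower and 3 higher, against 25% and 24.1% of all genes. The median over members was -0.145, against 0.02 for all genes. Among high-count genes the difference was small, with a median of -0.13 for the 39 members and -0.11 for all of them. Of these 39 members, 13 were lower. The share of all high-count genes that were lower is not given for this comparison, so 13 cannot be read as an excess. SRSF2 changed by -0.90 ± 0.07 (edgeR adjusted p = 1.06e-08), SRSF7 by -0.76 ± 0.09 (edgeR adjusted p = 1.35e-06) and SRSF1 by -0.69 ± 0.07 (edgeR adjusted p = 1.38e-07). The members that rose were HNRNPLL (0.46, edgeR adjusted p = 3.67e-05), TRA2A (0.39, edgeR adjusted p = 6.08e-04) and HNRNPH2 (0.26, edgeR adjusted p = 0.0316). Without tretinoin replicate 1, 26 were lower and 2 higher, when 24.9% of all genes were lower. HNRNPH2 was then no longer called, and U2AF1, SRSF9, HNRNPA2B1 and HNRNPD joined the lower genes with -0.39, -0.39, -0.34 and -0.28. Leaving out tretinoin replicate 3 gave 5 higher genes, when 3714 of 17151 genes were higher. With total-count scaling there were 13 lower and 5 higher, when 19.5% of all 16740 genes were lower and 5051 higher.

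Vemurafenib against DMSO and the combination against tretinoin share no library. Across the 46 genes their log2 fold changes had a Pearson correlation of 0.79 and a Spearman correlation of 0.75, and 35 had the same sign. The genes are not independent replicates, and library depth and gene length are common to both comparisons. Of the members called in each (28 and 19), 14 were lower and 2 higher in both, which is 57.1% of the first list and 84.2% of the second, and none was called in opposite directions. Calls were common over all genes, with 26.3% lower and 26.4% higher in the first comparison and 25% and 24.1% in the second. The overlap and correlations over all genes are not given here, so this agreement cannot be read as particular to the members. When tretinoin replicate 1 was left out, the correlations were 0.87 and 0.84, 39 genes had the same sign, and 24 genes were lower and 2 higher in both.

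**Figure D4:**
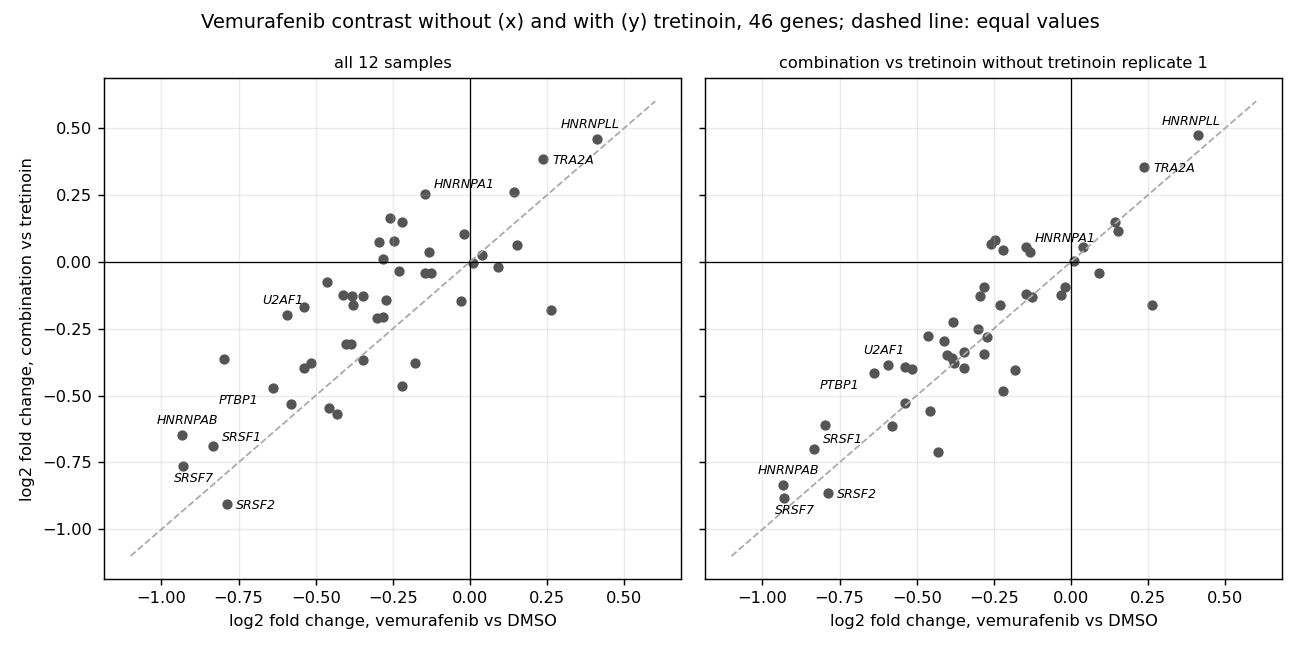
Log2 fold change of vemurafenib against DMSO (x axis, fit of all 12 libraries in both panels) and of the combination against tretinoin (y axis) for 46 genes, with all 12 libraries (left) and with tretinoin replicate 1 left out of the y values (right). SRSF7, HNRNPAB, SRSF1 and SRSF2 are at the lower left and HNRNPLL and TRA2A at the upper right in both panels, and more genes lie near the dashed line of equal values on the right.

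Adding tretinoin to vemurafenib changed no member at an adjusted p below 0.05, and 4.47% of all tested genes were called. DESeq2 called no member, and 4.57% of the genes it tested. At an unadjusted p under 0.05 there were 2 members (the share of all genes is not given here). These were HNRNPA0, which takes part in the stability of stress-response mRNAs, and SRSF8, a retrogene relative of SRSF2. HNRNPA0 (chr5:137745651-137754376, minus strand) counted 5874, 6644 and 6076 in DMSO, 4566, 5569 and 5711 with tretinoin, 5204, 5136 and 5189 with vemurafenib and 5984, 5886 and 5883 with the combination. Each combination library was above each vemurafenib library, and the difference was 0.19 ± 0.08 (95% interval 0.03 to 0.36, edgeR adjusted p = 0.244). SRSF8 counted 980.5, 1033 and 1029.8 in DMSO, 1007, 1006 and 998 with tretinoin, 898, 976 and 902 with vemurafenib and 1001, 979.7 and 1104 with the combination, and differed by 0.15 ± 0.07 (edgeR adjusted p = 0.305). The HNRNPA0 difference was called when only these 2 groups were fitted (edgeR adjusted p = 0.0193) and without tretinoin replicate 1 (edgeR adjusted p = 0.0298). Among the genes with the largest vemurafenib falls, the intervals of the difference were -0.25 to 0.12 for SRSF7, -0.24 to 0.05 for SRSF2 and -0.04 to 0.26 for PTBP1.

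The interaction of the drugs, the combination's change beyond the sum of the separate changes on the log2 scale, was called for no member by edgeR, and 0.806% of all tested genes were called. There were 6 members at an unadjusted p under 0.05 (the share of all genes is not given here). DESeq2 called 1 member, and 1.6% of the genes it tested. The smallest p was that of HNRNPA0, with 0.42 ± 0.11 (95% interval 0.19 to 0.66, edgeR adjusted p = 0.0943). HNRNPA0 was lower than DMSO under tretinoin (-0.23, edgeR adjusted p = 0.0976, not called) and under vemurafenib (-0.26, edgeR adjusted p = 0.0105) but near it with both drugs (-0.07, edgeR adjusted p = 0.498). Without tretinoin replicate 1 its interaction was 0.33 and was called (edgeR adjusted p = 0.0377). U2AF1 came next with 0.40 ± 0.17 (edgeR adjusted p = 0.283), a value that was 0.21 without tretinoin replicate 1.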

How the data were processed

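Gene counts were deposited by the authors as raw whole-number counts per gene for 12 libraries, with 1 column each. The authors sequenced poly(A)-selected RNA as paired-end reads, aligned it with STAR 2.5.3a to GRCh38.p10 and counted fragments over GENCODE 27 genes in union mode, ignoring strand. Fragments that touch several genes are dropped, which lowers genes with overlapping neighbours, and the counts of U2AF1 and U2AF1L5 show that fragments mapping to more than 1 place were kept.

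Positions, exon lengths and transcript types came from GENCODE 29, in which 58084 of the 58347 genes were found. Groups and replicate numbers came from the labels. The counts were normalised by TMM and tested in 1 fit of all 12 libraries with edgeR 4.0.16 (glmQLFit and glmQLFTest, R 4.3.3) after filterByExpr, which left 16740 genes. Benjamini-Hochberg adjustment covered all of them, with a threshold of 0.05. Totals of 13510235 to 21534377 counts set the precision of low genes. The fit was also run on counts simulated from the DMSO means, without a library that stands apart. Its outcome is not given here, and no result above rests on it. Near-identical stretches (98% over 150 bases) were found with blastn 2.17.0, and 24 of the 46 tested members had one in another annotated gene, overlapping genes included.

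Named with every library's value were the 6 called members with the largest rise and fall against DMSO and, where no member was called, the 2 with the smallest p; further members are given as examples of their family. The members, lists and motifs were chosen with earlier results of these data known. Alternatives were DESeq2 1.42.0, its size factors, total-count scaling, other filters on low counts, fits of only 2 groups, a threshold of 0.1, a replicate block and leaving out each library in turn.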

Additional observations from a re-analysis of the deposited data

How the results depend on the processing

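Counts of the 46 splicing factor genes called are compared here across the alternatives, and the causes of the shifts were not tested. For tretinoin against DMSO the lower genes numbered 0, and 11 without a low-count filter, 3 by DESeq2, 3 at a threshold of 0.1, and 0 to 7 with 1 library left out. Of all genes, 1.92% were lower without the filter, 4.15% by DESeq2 and 0.616% to 3.82% with 1 library left out. Shares of all genes at a threshold of 0.1 are not given here for any comparison. For vemurafenib against DMSO the 26 lower genes became 15 with total-count scaling (19 to 28 with 1 library left out). The 2 higher became 7 with total-count scaling, 1 without a low-count filter and 1 to 4 with 1 library left out. Of all genes, 15.7% were lower and 6575 of 16740 higher with total-count scaling, and 22.9% to 28.9% were lower with 1 library left out. Without the filter 4182 of 41806 were higher, and with 1 library left out 3797 of 17077 to 4858 of 17119. For the combination against DMSO the 25 lower became 16 and the 2 higher became 5 with total-count scaling, with 22 to 30 lower and 2 higher when 1 library was left out. Of all genes, 17.4% were lower and 6242 of 16740 higher with total-count scaling, and 23.4% to 29.2% were lower with 1 library left out. With 1 library left out 3923 of 17089 to 4954 of 17119 genes were higher. The combination against vemurafenib gave 1 higher gene when only the 2 groups were fitted (584 of 16320 over all genes). With 1 library left out it gave 0 to 1 (254 of 17077 to 538 of 17119 over all genes). The combination against tretinoin gave 5 higher genes with total-count scaling, with 2 to 5 higher and 13 to 26 lower when 1 library was left out. Of all genes, 5051 of 16740 were higher with total-count scaling, and 22.3% to 24.9% were lower with 1 library left out. With 1 library left out 3487 of 17089 to 4104 of 17206 genes were higher. The interaction gave 4 higher genes without a low-count filter, 1 by DESeq2, 1 at a threshold of 0.1, and 0 to 1 with 1 library left out. Over all genes 389 of 41806 were higher without the filter, 124 of 15869 by DESeq2 and 31 of 17089 to 121 of 17119 with 1 library left out. No named gene that was called changed its direction. The labels number replicates 1 to 3 in each group, and same-numbered libraries did not deviate together (correlations of deviations from -0.143 to 0.087 over 18 pairs). A fit with the replicate block called 27 members for vemurafenib, 27 for the combination, 19 for the combination against tretinoin and 0 in the other comparisons. It called 50.3%, 51.3% and 46.9% of all genes in the first 3 of these. With 3 libraries a group, members at low counts such as SRSF12 have wide intervals.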
